A study of Mus musculus with 14 samples.

Results

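C2C12 cells, a mouse myoblast line that divides in growth medium and fuses into multinucleated myotubes in differentiation medium (DM, which holds horse serum), were examined as they entered differentiation. The comparison set RNA from cells transfected with control siRNA (siCtrl) on day 1 of DM against RNA from siCtrl cells on day 0. It covered the transcripts whose mean FPKM over the 8 RNA-seq libraries of the series was at least 10, which were 11591 of the 24016 transcripts in the table, 10968 of them protein-coding. Fetub, with a mean of 10.0, was the last transcript inside that limit, and Zfp429, with a mean of 9.97, was the first outside it. The other libraries came from siCtrl cells on days 2 and 3 and from cells transfected with an siRNA pool against Klf5 (siKlf5) on days 0, 1, 2 and 3. Each siRNA and day had 1 library, so the spread between cultures is unknown and nothing below is a statistical test. C2C12 is an immortalised line and stands for satellite cell progeny only in part.

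Myogenic differentiation is driven by a family of basic helix-loop-helix (HLH) factors. Myod1 and Myf5 mark committed myoblasts, Myog is switched on at the start of differentiation, and these factors pair with E proteins to bind E-box sequences, often together with Mef2 proteins. Id proteins, which are HLH proteins without a DNA-binding region, take E proteins away from them. Entry into differentiation is coupled to a permanent exit from the cell cycle, and is followed by fusion and by assembly of sarcomeres, the contractile units of muscle.

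The 250 bases upstream of the transcript start are shown for 5 of these genes, 3 that were higher on day 1 and 2 that were lower. The E-box is the letter pattern through which the myogenic factors act. The patterns marked in the 2 lower genes are known from genes of the dividing cell. All 5 sequences are read 5′ to 3′ on the strand of the gene from the mm9 genome (NCBIM37), and no other transcript of the table lay in any of these windows. Capitals mark matches on either strand, and only of the patterns named for each gene. Other patterns were left unmarked, and the Cenpn and Chaf1a sequences also hold E-boxes (CAGGTG and CACGTG) in lower case. In Myog and Chrng (the fetal acetylcholine receptor subunit) they mark E-boxes, CANNTG. In Acta1 (skeletal muscle actin) they mark E-boxes and the CArG box, the pattern bound by Srf. In Cenpn (a kinetochore protein) they mark the cell cycle homology region (CHR), TTTGAA, and the CCAAT box, and in Chaf1a (a histone chaperone of replicating DNA) the E2F-type pattern GCGGGAA and the CCAAT box.
Myog, chr1:136186331-136186580, plus strand: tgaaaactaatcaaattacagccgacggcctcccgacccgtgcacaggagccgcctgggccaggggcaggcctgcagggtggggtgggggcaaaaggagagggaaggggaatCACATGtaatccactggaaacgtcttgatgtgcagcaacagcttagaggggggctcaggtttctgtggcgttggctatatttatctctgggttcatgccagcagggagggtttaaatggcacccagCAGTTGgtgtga
Chrng, chr1:89102136-89102385, plus strand: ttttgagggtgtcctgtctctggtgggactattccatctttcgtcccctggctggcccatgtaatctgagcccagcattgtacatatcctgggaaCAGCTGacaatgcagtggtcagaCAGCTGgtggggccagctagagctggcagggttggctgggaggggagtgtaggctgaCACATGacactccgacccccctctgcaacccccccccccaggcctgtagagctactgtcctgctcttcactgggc
Acta1, chr8:126418676-126418925, minus strand: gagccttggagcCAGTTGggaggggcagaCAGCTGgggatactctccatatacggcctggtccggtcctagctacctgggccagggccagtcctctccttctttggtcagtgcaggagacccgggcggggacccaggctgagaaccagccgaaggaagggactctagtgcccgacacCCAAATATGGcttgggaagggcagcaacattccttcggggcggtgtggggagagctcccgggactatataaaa
Cenpn, chr8:119445390-119445639, plus strand: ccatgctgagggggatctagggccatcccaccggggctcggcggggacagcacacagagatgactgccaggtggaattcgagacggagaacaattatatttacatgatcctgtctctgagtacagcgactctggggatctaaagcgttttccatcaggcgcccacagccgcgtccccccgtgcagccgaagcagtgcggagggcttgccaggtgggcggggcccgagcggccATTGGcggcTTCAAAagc
Chaf1a, chr17:56179589-56179838, plus strand: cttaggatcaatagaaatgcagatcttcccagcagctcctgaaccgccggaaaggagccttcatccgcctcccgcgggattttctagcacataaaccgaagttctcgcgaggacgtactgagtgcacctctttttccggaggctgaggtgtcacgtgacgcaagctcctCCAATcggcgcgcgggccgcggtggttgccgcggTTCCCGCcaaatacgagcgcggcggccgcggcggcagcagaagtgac

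In Chrng 2 of the 3 E-boxes read CAGCTG, the form that Myod1 prefers, and lay 155 and 132 bases before the start. In Myog the pair of E-boxes read CACATG and CAGTTG, 138 and 12 bases before the start. In Cenpn the CCAAT box began 18 bases and the CHR 9 bases before the start. A match is a description of letters and not evidence of binding.

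Of the 11591 transcripts, 674 (5.81%) were at least 2-fold higher on day 1 and 1025 (8.84%) at least 2-fold lower, while 9892 (85.3%) stayed within 2-fold. In what follows, the measured genes of a list are those that passed the limit on the mean, rose and fell are used only of transcripts past 2-fold, and a log2 ratio is log2((day 1 + 0.1)/(day 0 + 0.1)) of FPKM, a scale that understates the change of low values. At 4-fold the order was the other way, with 275 transcripts higher and 206 lower, and at 8-fold 155 were higher and 109 lower. Low values count here, since 58 of the 674 were listed at 0 on day 0 and 82 of the 1025 at 0 on day 1. The median log2 ratio was -0.12 and the quartiles were -0.49 and 0.22, so that a transcript at 0 lay slightly above the middle of the distribution. Higher transcripts made up 39.7% of those past 2-fold as deposited, 49.3% when the median was set to 0, and 51.3% when the upper quartiles of the libraries were set equal.

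The day 1 library was the shallowest of the 8. The reads recovered from the FPKM values came to 12178833 on day 0 and 7850497 on day 1, a ratio of 1.55, in a range of 7850497 to 20301506 over all libraries. The median transcript rested on 582 reads on day 0 and 338 on day 1. The intervals given below are 95% exact (Clopper-Pearson) intervals on reads divided by 6, because reads came in groups of up to 6, and they cover counting error only. For a transcript with no reads on one day the end of the interval nearest to 0 is given in place of a fold. From the shortest to the longest of 3 equal groups by exon length, 12.2%, 8.75% and 5.62% of transcripts fell and 7.22%, 5.00% and 5.23% rose, and the part of length or depth in the counts was not tested. In bulk RNA a lower share of cells with a transcript and less of it per cell cannot be told apart.

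**Figure D1:**
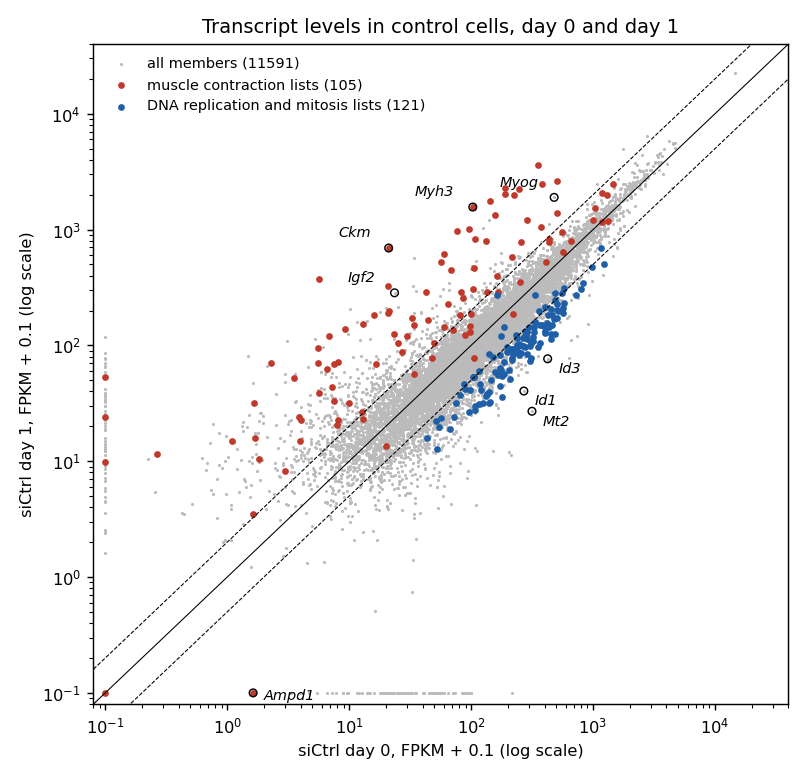
FPKM + 0.1 of each of the 11591 transcripts in siCtrl cells on day 0 (horizontal) and day 1 (vertical), both on log scales, with 1 library per axis; the solid line is equality and the dashed lines are 2-fold. Genes of 4 muscle contraction lists (red, 105 genes) lie mostly above the upper dashed line and genes of the DNA replication and mitosis lists (blue, 121 genes) mostly below the lower one.

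The myogenic factors were split between a strong rise of Myog and Mef2c and little movement elsewhere. Myog (NM_031189, chromosome 1, 136186581 to 136189125) had FPKM values of 479, 1896, 2061 and 2293 on days 0 to 3 in siCtrl cells. In siKlf5 cells its values were 328, 1517, 1740 and 1386 on the same days. Most of its rise thus lay within the first day, and both siRNAs showed it. The siCtrl log2 ratio of Myog was 1.98 (interval 1.76 to 2.21), a 3.95-fold difference. Mef2c, which acts with the myogenic factors, went from 18.7 to 55.2 FPKM, a log2 ratio of 1.56 (0.99 to 2.16), and reached 163 on day 2 and 315 on day 3. Myod1 was level, at 502 FPKM on day 0 and 494 on day 1, and its ratio of -0.02 turned positive under the other scalings. Myf5 was at 204 and 154 FPKM, a ratio of -0.40 with an interval of -0.84 to 0.03. Of the 14 measured factors 2 (14.3%) rose and none fell, beside 5.81% and 8.84% of all transcripts, and the median ratio was 0.01. Among the partners, the E protein genes Tcf3, Tcf12 and Tcf4 had ratios of -0.38, -0.11 and 0.48, with Tcf12 changing sign between scalings, and Mef2a and Mef2d had 0.68 and 0.22. Six4, a homeobox factor upstream of the family, had -0.12, Srf had 0.37, and the satellite cell factor Pax7 stood near 15 FPKM on both days, at 15.7 and 15.0, with a ratio of -0.07. Eya1, a transcriptional cofactor, had -0.05. Pax7, Eya1 and Six4 also changed sign with the scaling. Myf6, Mef2b, Eya2 and Pax3 were below the limit on the mean.

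The identity of the cells was checked on markers of myoblasts and differentiation. The myoblast cadherin Cdh15 was at 957 FPKM on day 0 and 1360 on day 1, and the intermediate filament gene Des at 1445 and 2451. Myh3 (NM_001099635, chromosome 11, 66891802 to 66915793), the embryonic myosin heavy chain, was at 103, 1564, 2107 and 2790 FPKM on days 0 to 3 of siCtrl and at 96.4, 1736, 2514 and 2685 in siKlf5. Its log2 ratio in siCtrl was 3.92 (3.71 to 4.14), from 1207 to 11932 reads, a 15.2-fold difference. Myog and Myh3, the markers of differentiation, thus both rose on day 1.

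In the list of HLH inhibitors and repressors, Id1, Id2, Id3 and Twist2 fell. Id1 (NM_010495, chromosome 2, 152561987 to 152563146) was at 271 FPKM on day 0 and 40.3 on day 1, then at 101 and 93.4 on days 2 and 3 of siCtrl. In siKlf5 cells it was at 192, 51.6, 108 and 103. Day 1 was the lowest of the 4 days with either siRNA. The siCtrl log2 ratio of Id1 was -2.75 (-4.01 to -1.70). Id3 went from 424 to 76.5 FPKM, a ratio of -2.47 (-3.33 to -1.71), and Id2 from 208 to 64.6, a ratio of -1.68 (-2.52 to -0.93). Twist2, an HLH repressor of mesenchymal cells, went from 192 to 76.9 (ratio -1.32) in siCtrl and from 99.6 to 96.9 (ratio -0.04) in siKlf5. Heyl, a target of Notch, was the only member that rose, at 38.9 FPKM on day 0 and 196 on day 1, a ratio of 2.33 (1.90 to 2.78). Of the 16 measured members 4 (25%) fell and 1 (6.25%) rose, beside 8.84% and 5.81% of all transcripts. The other 11 stayed within 2-fold, and the median was 0.11. Among the 11 were the Notch targets Hes1 (0.12) and Hey1 (0.19), Hes6 (0.43), the zinc finger repressors Snai1 (0.24), Snai2 (0.11), Zeb1 (0.85) and Zeb2 (0.21), the clock-linked repressors Bhlhe40 (0.26) and Bhlhe41 (-0.14, with a sign that depends on the scaling), Msc (-0.07, likewise) and Mdfic (-0.88).

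**Figure D2:**
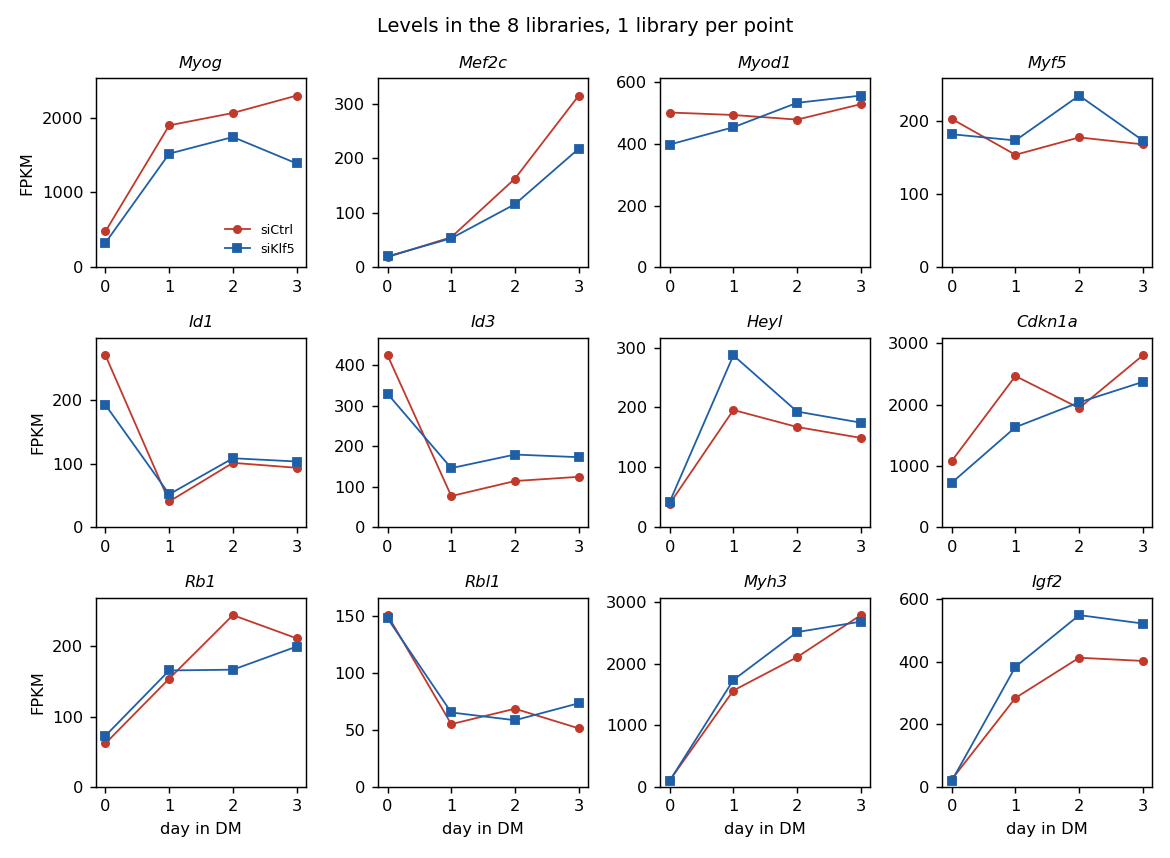
FPKM (vertical, from 0) of 12 genes on days 0 to 3 of DM (horizontal) in siCtrl (red circles) and siKlf5 (blue squares) libraries, 1 library per point with no error. Myog, Mef2c, Heyl, Cdkn1a, Rb1, Myh3 and Igf2 are higher on day 1 than on day 0 with both siRNAs, and Id1, Id3 and Rbl1 are lower.

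The machinery of fusion contained some of the largest rises. Gm7325, which encodes myomixer and acts at the last step of membrane fusion, was at 34.1 FPKM on day 0 and 569 on day 1, a log2 ratio of 4.06 (3.08 to 5.23). Tmem8c, which encodes myomaker and acts before it, was at 139 and 1210 FPKM, a ratio of 3.12 (2.73 to 3.53). The caveolin gene Cav3 was at 3.53 and 56.8 (ratio 3.97, on 8 and 84 reads). These 3 genes had about 16.7, 8.69 and 16.1 times the day 0 level. The membrane repair genes Trim72 and Dysf had ratios of 3.06 and 1.88, and Tmem182 had 2.49. Itgb1, an integrin that was already at 1264 FPKM on day 0, was the gene nearest the median, at 0.27. Neo1, a netrin receptor, fell from 171 to 85 FPKM (ratio -1.01), and was within 2-fold when the upper quartiles were set equal. Of 26 measured genes 6 (23.1%) rose and 1 (3.85%) fell, beside 5.81% and 8.84% of all transcripts. The same 6 rose in siKlf5, where 7.76% of all transcripts rose.

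Contractile genes were the groups with the largest share of rising members among the 29 lists examined. The thick filament, thin filament, Z-disc and excitation-contraction lists held 120 genes, of which 105 passed the limit on the mean, and of these 77 (73.3%) rose and 1 fell, where 5.81% and 8.84% of all transcripts did. The limit uses all 8 libraries, so a gene that was high only after day 0 could pass it, and the counts are a description. The median log2 ratio was 2.07, a 4.20-fold difference, and their median level went from 56.0 to 184 FPKM on the first day and then to 386 and 479. Their share of the summed FPKM of the library (without Rn45s, the ribosomal RNA precursor) was 0.772%, 2.37%, 3.05% and 3.90% on days 0 to 3.

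In the thick filament and M-band 24 of 27 measured genes rose and none fell (median 2.43). Besides Myh3, Trim63, a ubiquitin ligase of the M-band, went from 2.17 to 69.9 FPKM and the myosin chaperone Unc45b from 9.07 to 137. Mybpc1, a myosin-binding protein, was at 0 on day 0 and at 9.82 FPKM on day 1, on 0 and 49 reads, with a log2 interval that begins at 1.43. Myh7b rested on 2 reads on day 0 (0.167 FPKM) and 89 on day 1 (11.4 FPKM), a 68.3-fold ratio with a log2 interval of 2.19 to 21.03. Myom3, an M-band protein, lay at the median (2.43).

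In the thin filament 18 of 20 genes rose and none fell (median 2.83), the highest median of any list. The cardiac and skeletal actins were among them: Actc1 went from 188 to 2273 FPKM, a ratio of 3.59 (3.27 to 3.93), and Acta1 from 351 to 3588, a ratio of 3.35 (3.12 to 3.60). The fast troponins Tnnt3 (190 to 2028 FPKM, ratio 3.41) and Tnni2 (96.4 to 1011, ratio 3.39) moved by nearly the same factor as the actins. The actin nucleators Lmod2 and Lmod3 had ratios of 3.56 and 2.75, and nebulin (Neb), the ruler of the thin filament, 3.23.

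In the Z-disc and costamere 15 of 26 genes rose and none fell (median 1.18). Ankrd2, a stretch-responsive ankyrin repeat protein, was at 5.60 FPKM on day 0 and 372 on day 1, a ratio of 6.03 (4.16 to 9.12). The actin crosslinker Actn2 had 4.15, Ldb3 3.21, and the calcineurin-binding proteins Myoz1 and Myoz2 had 3.24 and 3.15, with Myoz1 on only 4 and 26 reads and an interval of -0.34 to 11.19. Hspb3, a small heat shock protein, was at 0 and 24.1 FPKM on 0 and 24 reads, with an interval that begins at 0.02. Pdlim5 lay nearest the median, at 1.09.

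In excitation-contraction coupling and muscle energy supply 20 of 32 genes rose and 1 fell (median 1.70). Ckm, the muscle creatine kinase, was at 21.0 FPKM on day 0 and 693 on day 1, a ratio of 5.04 (4.12 to 6.15). A930016O22Rik, which overlaps Ckm on the other strand, had 5.15, and since both strands were counted their reads cannot be told apart. The sodium channel Scn4a had 4.27, the calcium channel Cacna1s 4.10 and the calcium-binding protein Hrc 3.98. Cox6a2, a muscle form of a cytochrome oxidase subunit, was at 0 and 53.7 FPKM on 0 and 45 reads, with an interval that begins at 1.27. Jsrp1, which was already at 255 FPKM, had 1.60. The single gene counted as falling, Ampd1 (muscle AMP deaminase), rested on 7 reads on day 0 and 0 on day 1, and its interval reaches up to 5.12, so that its direction is not determined. In siKlf5 it stood at 2.41 and 10.0 FPKM.

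Genes of the neuromuscular synapse rose in part. Chrng went from 126 to 1036 FPKM, a ratio of 3.04 (2.69 to 3.41), whereas Chrnd, another receptor subunit, went from 326 to 629 (0.95). Colq, the collagen tail of acetylcholinesterase, had 3.02 on 9 and 50 reads, the neuregulin receptor Erbb3 2.13, the adhesion molecule Ncam1 1.29 and the agrin receptor Lrp4 0.62. Agrn itself had -1.03, and was within 2-fold when the upper quartiles were set equal. Of 14 genes 4 (28.6%) rose and 1 (7.14%) fell, beside 5.81% and 8.84% of all transcripts.

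**Figure D3:**
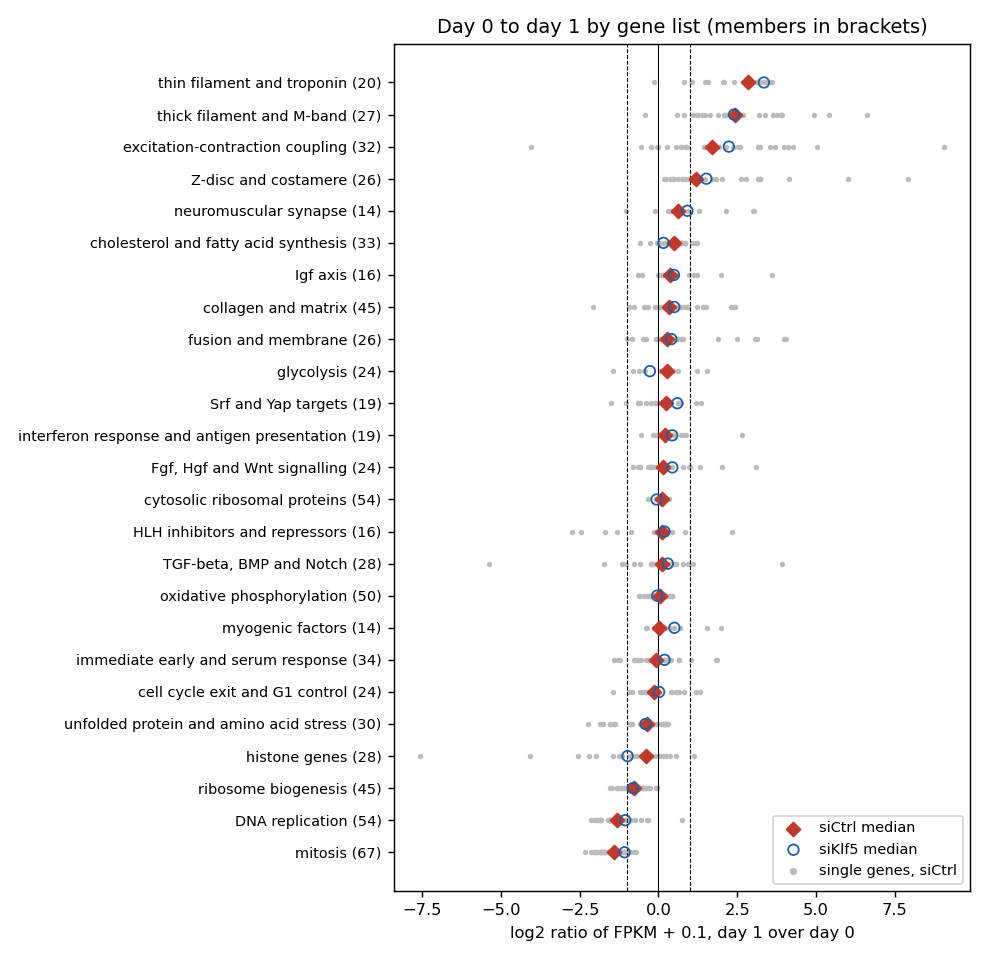
Log2 ratio of FPKM + 0.1, day 1 over day 0 (horizontal), by gene list (vertical, with the number of measured genes in brackets): single genes in siCtrl (grey), list medians in siCtrl (red diamonds) and in siKlf5 (open blue circles); dashed lines are 2-fold. The 4 contraction lists have siCtrl medians of 1.18 to 2.83 and the mitosis and DNA replication lists of -1.42 and -1.32.

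Genes of the dividing cell fell almost as a block. All 121 genes of the DNA replication and mitosis lists passed the limit, and 102 (84.3%) fell while none rose, beside 8.84% and 5.81% of all transcripts. Their median went from 247 to 98.5 FPKM, a log2 ratio of -1.37, and their share of the summed FPKM from 1.45% to 0.605%, with 0.793% and 0.511% on days 2 and 3. With the upper quartiles set equal 91 fell.

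Of the 67 mitosis genes 62 fell, and every one had a negative ratio (median -1.42). Cenpn was at 178 FPKM on day 0 and 35.6 on day 1, a ratio of -2.32 (-3.27 to -1.5). The mitotic kinase Plk1 went from 449 to 113 FPKM (-1.99), the kinetochore gene Nuf2 from 302 to 73.8 (-2.03), and the motor proteins Kif4, Kif18a and Kif23 had -2.13, -2.04 and -2.0. Ndc80, the partner of Nuf2, lay at the median, from 267 to 99.4. None of these genes had reached 0 on day 1, and all 7 still stood between 12.6 and 113 FPKM.

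Of the 54 DNA replication genes 40 fell (median -1.32). The clamp loader subunit Rfc4 went from 140 to 31.8 FPKM, a ratio of -2.13 (-3.41 to -1.07), the licensing factor Cdt1 from 209 to 50.8 (-2.04), and Mcm10, which acts at origin firing, from 108 to 27.4 (-1.98). Thymidine kinase (Tk1), the polymerase subunit Pole2 and the checkpoint mediator Clspn had -1.96, -1.89 and -1.87. Chaf1a lay nearest the median, from 287 to 114 FPKM (-1.33).

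Most regulators of G1 and of the exit from the cycle stayed within 2-fold. Cdkn1a, the Cdk inhibitor p21, was already at 1079 FPKM on day 0 and reached 2468 on day 1, a ratio of 1.19 (1.05 to 1.34). Rb1, the retinoblastoma protein, went from 61.8 to 154 FPKM, a ratio of 1.31 (0.93 to 1.70), and its relative Rbl1 in the other direction from 151 to 55.0 (-1.45, -2.11 to -0.85). Rbl2, which encodes the remaining pocket protein, was near level (-0.11, with a sign that depends on the scaling). Rb1 and Rbl1 thus exchanged rank between the days in siCtrl, and in siKlf5 they went from 72.6 to 166 and from 148 to 65.3. The other Cdk inhibitors above the limit on the mean were within 2-fold, with Cdkn1b at -0.41, Cdkn2c at -0.93 and Cdkn2d at -0.85. Cdkn1c (p57), below that limit and named after its values were seen, went from 5.89 to 22.2 FPKM on 22 and 54 reads. The D cyclins split, with Ccnd3 at 0.65, Ccnd1 at -0.43 and Ccnd2 at -0.31, and Ccnd1 stood at 784, 584, 225 and 130 FPKM over the 4 days. The kinases Cdk4, Cdk2 and Cdk6 had -0.58, -0.39 and -0.16, the E2F factors E2f4 and E2f5 -0.33 and -0.11 (the second changing sign with the scaling), and Trp53 and Mdm2 -0.52 and -0.30. The growth arrest genes Gadd45a, Gadd45b, Gadd45g and Btg2 had 0.58, 0.81, 0.42 and 0.54, Btg1 had -0.13 and the cyclins Ccng1 and Ccng2 0.39 and -0.05, the signs of Btg1 and Ccng2 depending on the scaling. Of 24 measured genes 2 (8.33%) rose and 1 (4.17%) fell, beside 5.81% and 8.84% of all transcripts. The median of -0.14 turned to 0.00 with equal upper quartiles.

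Most histone messages carry no poly(A) tail, and poly(A) RNA was sequenced. The measured histone genes had siCtrl medians of 77.9 and 48.3 FPKM on days 0 and 1, beside 108 and 94.7 for all transcripts. Some of them rested on few reads. Of 28 measured genes 8 (28.6%) fell and 1 (3.57%) rose, beside 8.84% and 5.81% of all transcripts (median -0.41). The linker histones Hist1h1d, Hist1h1e and Hist1h1b stood at 35.5, 35.9 and 27.6 FPKM on day 0 and at 2.02, 6.01 and 5.92 on day 1, on 2 to 6 reads, so that the log2 ratio of Hist1h1d was -4.07 with an interval of -19.11 to -0.10. Hist2h4 was at 18.7 and 0 FPKM on 14 and 0 reads, with an interval up to 2.57, Hist1h4a had -1.98, Hist2h2ac -1.46 and Hist1h3c -0.44. Hist2h3b went from 37.7 to 82.8 FPKM (1.13) in siCtrl and from 119 to 9.02 in siKlf5.

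Of 34 immediate early and serum response genes 3 (8.82%) rose and 3 (8.82%) fell, shares near the 5.81% and 8.84% of all transcripts (median -0.08, of a sign that depends on the scaling). Myc, which promotes growth, went from 207 to 88.6 FPKM (-1.23), the AP-1 subunit Fosl1 from 549 to 226 (-1.28) and the chromatin protein Hmga2 from 592 to 222 (-1.41, -1.64 to -1.19). Spry1, an inhibitor of receptor tyrosine kinase signalling, went from 24.7 to 88.8 (1.84) and Egr3 from 29.4 to 60.7 (1.04), whereas Spry2 was near level (-0.08, likewise). Fos had 1.87 on 14 and 34 reads, with an interval of -0.52 to 4.95. Among targets of Srf and Yap, the smooth muscle actin Acta2 went from 439 to 1126 FPKM (1.36, 1.17 to 1.55) and thrombospondin (Thbs1) from 253 to 583 (1.20), while Cnn2, Zyx and Ajuba had 0.72, 0.23 and -0.65. Tagln, an actin-binding protein of smooth muscle, went from 79.2 to 28.2 FPKM (-1.49), against a list median of 0.23.

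Genes of ribosome biogenesis were lower on day 1. All 45 measured genes had a negative ratio, 12 (26.7%) fell and none rose, beside 8.84% and 5.81% of all transcripts, and the median was -0.77. The box C/D snoRNP protein Nop56 went from 755 to 258 FPKM, a ratio of -1.55 (-1.87 to -1.24), and the snoRNA genes Snord57 and Snord110 lie within its span. The other large differences were in Wdr12 (-1.48), Ppan (-1.32), Gar1 (-1.32), Rrp9 (-1.25) and Cad (-1.27), the enzyme that starts pyrimidine synthesis, and Heatr1 lay at the median (-0.77). The genes of the cytosolic ribosomal proteins themselves did not pass 2-fold in any of 54 cases (median 0.13, range -0.32 to 0.33), with Rpl27 at 1435 and 1566 FPKM, Rps14 at 1906 and 2398 and Rpl38 at 1024 and 819. Rps20 and Rpl24 had 0.25 and 0.27. The oxidative phosphorylation list was as still, with none of 50 genes past 2-fold (median 0.04). Cox6a2, given above with the genes of muscle energy supply, was not in that list. The ratios of the list ran from Ndufa5 (-0.62), Tfam (-0.59), Ndufa9 (-0.45) and Ndufb3 (-0.38) to Cox7a1 (0.44), with Atp5g3 at 0.03.

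Of 30 genes of the unfolded protein and amino acid stress list 9 (30%) fell, beside 8.84% of all transcripts. None rose, and 21 stayed within 2-fold (median -0.38). In siKlf5 13 of the 30 fell, among them the same 9, beside 7.07% of all transcripts. Trib3, a pseudokinase induced by Atf4, went from 178 to 37.4 FPKM, a ratio of -2.25 (-3.10 to -1.5). Asparagine synthetase (Asns) went from 636 to 178 (-1.84), the mitochondrial serine hydroxymethyltransferase Shmt2 from 928 to 273 (-1.77) and Phgdh, the first enzyme of serine synthesis, from 971 to 359 (-1.44). Sesn2 and Ddit3 had -1.55 and -1.53, while Ero1l, an oxidase of the endoplasmic reticulum, had -0.53.

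Among the 3 lists of secreted signals and their receptors, the highest ratios were those of Fst and Igf2. Igf2, an autocrine factor of differentiating myoblasts, was at 23.4, 284, 413 and 403 FPKM on days 0 to 3 of siCtrl and at 19 and 384 on days 0 and 1 of siKlf5, and its siCtrl ratio was 3.59 (3.03 to 4.22). H19, the noncoding RNA from the same imprinted locus, went from 2753 to 6404 FPKM (1.22, 1.14 to 1.29), and Mir675 lies within it. The binding proteins Igfbp3 and Igfbp4 had 1.98 and 0.97, the receptor Igf1r 0.40, Irs2 -0.66, and Grb10 1.11 on 8 and 12 reads. Of 16 genes 4 (25%) rose and none fell, beside 5.81% and 8.84% of all transcripts. Fst, which encodes the activin and myostatin antagonist follistatin, went from 2.39 to 37.6 FPKM and on to 213 and 379, a first-day ratio of 3.92 (1.94 to 7.11).

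Fst belongs to the TGF-beta, BMP and Notch list. Of its 28 genes 2 (7.14%) rose and 4 (14.3%) fell, beside 5.81% and 8.84% of all transcripts (median 0.10). In siKlf5 5 of the 28 rose, among them the same 2, and none fell, beside 7.76% and 7.07% of all transcripts. Besides Fst, Tgfb3 had 1.11, the inhibitory Smad7 -1.15, the BMP antagonist Nog -1.72, Jag1, a Notch ligand, -1.04 (within 2-fold with equal upper quartiles), and the receptor Notch2 0.12. Bmp4 was at 4.09 and 0 FPKM on 16 and 0 reads, with an interval up to 2.20. Of 24 genes of the Fgf, Hgf and Wnt list 4 (16.7%) rose and none fell (median 0.15). Fgf21 was at 24.8, 214, 48.7 and 103 FPKM on days 0 to 3, and the Wnt antagonist Dkk2 at 33.9, 139, 33.5 and 20.6, so that both were highest on day 1 in siCtrl. In siKlf5 day 1 stood at 62.1 for Fgf21 and 42.8 for Dkk2, from 29.1 and 24.6 on day 0. Hgf and Fgfr4 had 1.31 and 1.02, Egfr 0.98, Pdgfrb 0.12 and Fzd7 -0.80.

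Matrix and lipid genes were mostly above the middle of the distribution. Of 45 collagen and matrix genes 7 (15.6%) rose and 1 (2.22%) fell, beside 5.81% and 8.84% of all transcripts (median 0.32). The proteoglycan decorin (Dcn) went from 65.8 to 345 FPKM (2.39, 1.88 to 2.93) and Col6a2 from 38.6 to 191 (2.30). Col6a1 went from 128 to 344 (1.43), Col5a3 from 179 to 510 (1.51) and the protease Adamts5 from 6.53 to 35.4 (2.42). Fibronectin (Fn1) lay at the median, at 1430 and 1789 FPKM, and periostin (Postn) fell from 24.7 to 5.77 (-2.08, -4.13 to -0.54). Of 33 genes of cholesterol and fatty acid synthesis 3 (9.09%) rose, Tm7sf2 (1.22), Mvd (1.17) and Hsd17b7 (1.08), and none fell. The median was 0.50, with Idi1, Nsdhl, Acss2 and Ebp at 0.84, 0.83, 0.83 and 0.50. In glycolysis 2 of 24 genes (8.33%) rose and 1 (4.17%) fell, and the median was 0.26. The muscle phosphofructokinase Pfkm rose from 196 to 455 FPKM (1.21) and Aldoc from 19.2 to 55.8 (1.53), while the regulator Pfkfb3 fell from 37.6 to 13.7 (-1.46). Pkm was at 3236 and 3747 FPKM (0.21), the lactate carrier Slc16a3 had 0.63, Vegfa -0.63 and Ankrd37 -0.81.

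The largest differences outside these lists were sought among the 10605 transcripts with at least 500 bases of exon and at least 60 reads in the higher library, of which 453 rose and 845 fell. Of the 25 largest increases, 8 belonged to the lists above. Several others were listed at 0 on day 0: Art1, a muscle ADP-ribosyltransferase, stood at 66.9 FPKM on day 1 (log2 interval from 2.93), BC051019 at 37.1 (from 2.5), Dpep1 at 32.2 (from 2.5), Slc44a4 at 29.9 (from 2.44), Tceal7 at 71.0 (from 2.42) and Fn3k at 58.6 (from 2.16). The phosphoglucomutase-like Pgm5 went from 1.53 to 47.2 FPKM (4.86), Itgb1bp2, the muscle chaperone melusin, from 5.16 to 113 (4.43), Afap1l1 from 2.86 to 56.7 (4.26), the glycosyltransferase Galnt6 from 10.1 to 208 (4.35, 3.68 to 5.12) and Tceal5 from 2.01 to 66.3 on 4 and 86 reads. Tm6sf1 (5.79) and Hdgfrp3 (4.12) overlap on opposite strands, so their reads cannot be told apart, and A730056A06Rik (4.06) overlaps Rgma. Rab44 went from 0.869 to 16.6 FPKM (4.10) in siCtrl but from 1.5 to 2.01 in siKlf5, and Pkhd1 from 0.158 to 5.34 on 4 and 88 reads.

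The 25 largest decreases held further genes of DNA repair and division. Recql4, a DNA helicase, went from 87.4 to 12.6 FPKM (-2.78, -3.86 to -1.88), the deaminase Dctd from 113 to 12.2 (-3.19), the ubiquitin-conjugating enzyme Ube2t from 68.3 to 4.16 (-4.0), Palb2 from 37.7 to 3.46 (-3.41), the centromere genes Cenpm and Oip5 from 67.1 to 7.83 and from 60.4 to 6.04, and the glycosylase Mbd4 from 27.2 to 3.71. Gpnmb, a membrane glycoprotein, went from 58.8 to 4.95 (-3.55), Car8 from 53.8 to 6.83 (-2.96), Tinagl1 from 54.8 to 8.04 (-2.75), Tmem238 from 66.5 to 8.94 (-2.88), and Mfsd7b from 45.5 to 6.12 and A230020J21Rik, which overlaps it, from 34.3 to 4.74. Lipt2, Zfp119b, Cth and Gm3219 had only 1 to 3 reads on day 1, and their log2 intervals began at -35.73, -35.37, -14.71 and -13.87 and ended at -0.85, -0.41, -1.29 and -0.26.

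Some of the 25 largest decreases were small in the siKlf5 pair, a difference that was not tested. The metallothionein genes Mt1 and Mt2, whose products bind zinc and copper, stood at 640 and 315 FPKM on day 0 and at 78.4 and 26.9 on day 1 of siCtrl, and at 394 and 261 on day 2. In siKlf5 they stood at 737 and 391 on day 0 and at 507 and 283 on day 1. The log2 ratios were -3.03 (-4.19 to -2.05) and -3.55 (-5.79 to -1.97) in siCtrl against -0.54 and -0.46 in siKlf5. Snhg4, Det1, 1190002F15Rik and Hoxc5 were alike, with ratios of -3.52, -3.01, -3.64 and -3.02 in siCtrl and -0.44, -0.27, -0.70 and -0.65 in siKlf5. Hist1h2br and Hist1h2bq had equal values in siCtrl, 52.3 FPKM on day 0 and 5.89 on day 1, so that their reads cannot be assigned to either.

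The letter patterns were unequally shared between the promoters of these groups. Of 11589 promoters read, 55.4% held an E-box and 11.8% the form CAGCTG, which is itself an E-box. Among the 674 transcripts that rose the shares were 70.8% and 21.7%, among the contraction genes 83.8% and 39.0%, and among the 1025 that fell 55.5% and 11.3%. MEF2 sites were found in 1.60% of all, 5.34% of the risen and 18.1% of the contraction promoters, the MCAT pattern CATTCC in 10.1%, 14.5% and 21.0%, and the CArG box in 1.22%, 1.78% and 6.67%. The CHR was found in 10.3% of all promoters, 15.8% of those that fell and 34.3% of the mitosis list, while the DNA replication list held it in 5.56%. The E2F-type pattern went the other way, with 22.2% in the DNA replication list, 1.49% in the mitosis list and 7.12% in all. The CCAAT box was common to both, at 74.6% and 66.7% beside 35.8%. The GC box CCGCCC was rarer in contraction promoters (36.2%) than in all (61.0%), and the median GC content was 57.2% in contraction, 58% in mitosis, 61.2% in DNA replication and 60.4% in all promoters. The lists were chosen with earlier results known, and base composition was not taken into account.

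**Figure D4:**
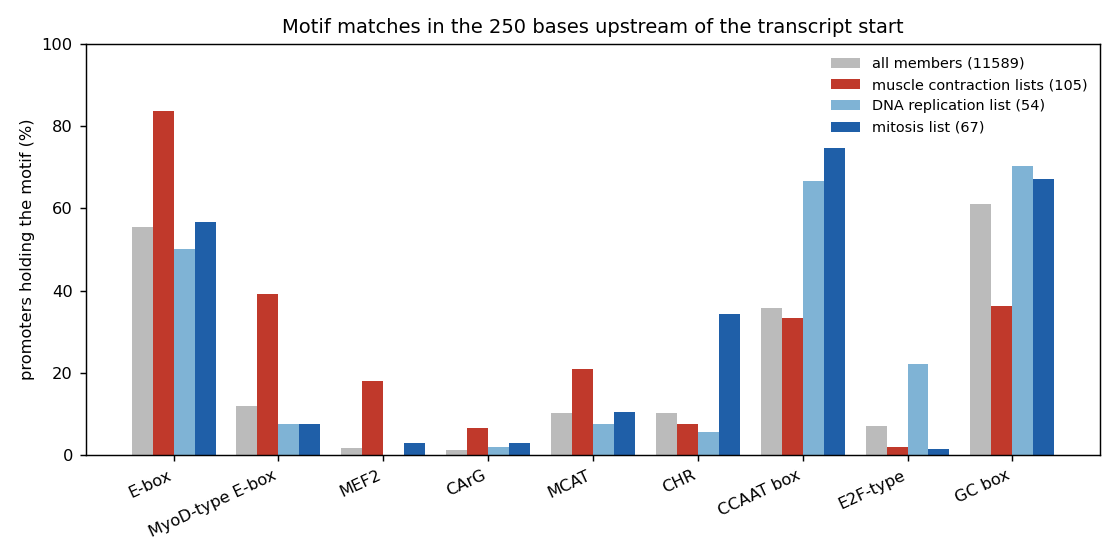
Percent of promoters (250 bases upstream of the start, both strands) that hold each of 9 patterns (horizontal), for all members (grey, 11589), the contraction lists (red, 105), the DNA replication list (light blue, 54) and the mitosis list (dark blue, 67). The contraction lists stand above all members in E-box, CAGCTG-type, MEF2, CArG and MCAT patterns, the mitosis list in CHR and both cell cycle lists in CCAAT boxes.

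The Klf5 knockdown cells gave a second pair of libraries for the first day that shares none with the control pair. It is not a replicate, since the siRNA differs. Klf5 itself was at 224 FPKM on day 0 and 381 on day 1 in siCtrl, a log2 ratio of 0.77 (0.41 to 1.13), and reached 614 and 933 on days 2 and 3. In siKlf5 it was at 35.1, 160, 192 and 211. In siKlf5 900 transcripts (7.76%) rose and 819 (7.07%) fell. Of the 674 that rose in siCtrl 479 also rose in siKlf5, which is 71.1% of the first set and 53.2% of the second. Of the 1025 that fell 426 also fell, which is 41.6% and 52.0%. The same sign was found for 90.1% of the risen and 84.8% of the fallen transcripts, where 42.5% of all transcripts were positive and 57.3% negative in siKlf5. In all, 23 and 49 went past 2-fold in opposite directions. With at least 500 bases of exon and 60 reads, 75.3% and 43.4% were shared, beside 5.64% and 6.15% of those transcripts past 2-fold in siKlf5.

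By group, the contraction genes had a median of 2.07 in siCtrl and 2.36 in siKlf5, and the genes of the cell cycle -1.37 and -1.07. In siKlf5 83 of the 105 contraction genes rose and 76 of the 121 cell cycle genes fell. Trib3 and Asns were lower in both, with ratios of -4.33 and -3.24 in siKlf5. The glycolysis median was 0.26 in siCtrl and -0.27 in siKlf5, and Slc16a3 had 0.63 and -1.06. Differences between the siRNAs were not tested.

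**Figure D5:**
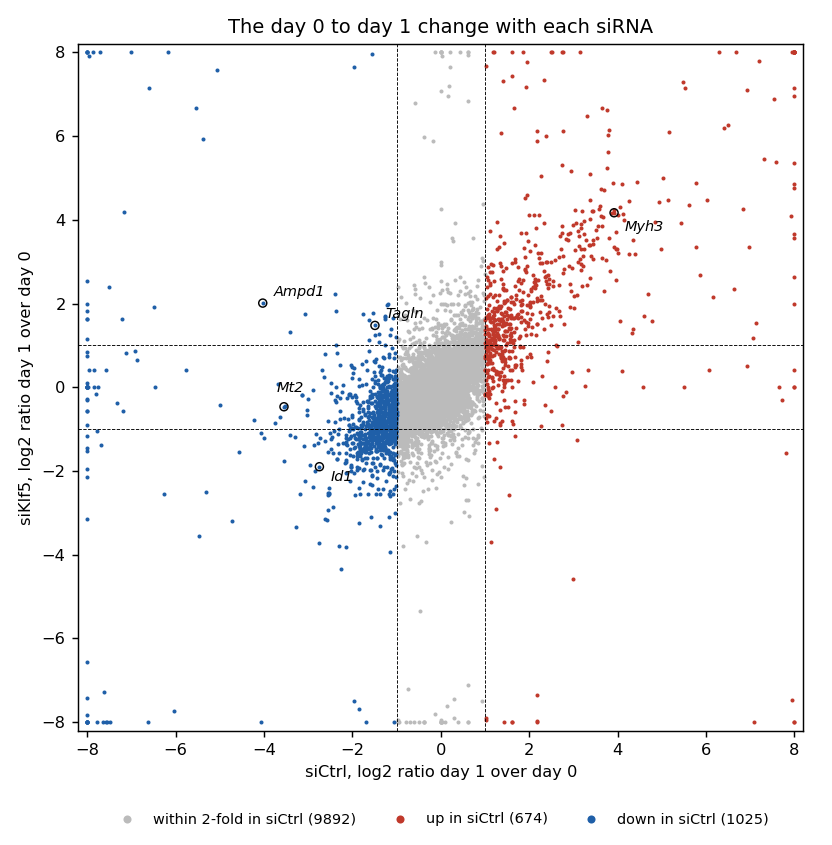
Log2 ratio day 1 over day 0 in siCtrl (horizontal) and in siKlf5 (vertical) for 11591 transcripts, colored by the siCtrl change (red up, 674; blue down, 1025; grey within 2-fold, 9892); dashed lines are 2-fold and transcripts beyond a ratio of 8 are drawn at the limit. Myh3 lies high and Id1 low on both axes, Mt2 is low in siCtrl and near the middle in siKlf5, and Tagln and Ampd1 lie in the upper left.

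The levels after day 1 are given side by side because those comparisons share libraries. The transcripts that rose had medians of 11.2, 43.7, 63.2 and 67.4 FPKM on days 0 to 3 in siCtrl. Those that fell had 77.1, 27.0, 45.4 and 38.0. In siKlf5 the same sets stood at 12.9, 38.4, 52.7 and 58.7 and at 76.5, 44.7, 46.4 and 41.0. Both sets were chosen on the siCtrl values of days 0 and 1, so those levels and any return after them are a description. Single genes took different courses after day 1: Acta1 and Tnnt3 stood at 3163 and 2208 FPKM on day 2 and at 4150 and 3300 on day 3, Ankrd2 at 372 and 198, and the cell cycle genes Plk1 and Tk1 at 185 and 277 on day 2 and at 78.6 and 150 on day 3. The day 2 siCtrl library was the deepest of the 8. The part of depth, or of the cap of 3 reads per position, in these levels was not tested.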

How the data were processed

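RNA-seq of C2C12 cells was deposited by the authors as 1 table with FPKM values for 24016 RefSeq transcripts in 8 libraries. Paired-end poly(A) reads were aligned to mm9 with STAR and counted over exons on both strands with HOMER. At most 3 reads were kept per position. Each library was scaled to a total of 10000000, so the FPKM values are not those of other pipelines. The versions of STAR and HOMER for the RNA-seq steps are not given in the sources used here. Log2 columns, which the authors made from the same FPKM values with an added random number, served as an alternative, and 1 log2 column that names no day was not used.

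Reads were recovered as FPKM times exon length over the step of 1 read, and ranged from 7850497 to 20301506 per library. Log2 ratios used a pseudocount of 0.1. With 1 library per siRNA and day no test was run, and 2-fold was the limit for a call. Scripts ran in Python 3.11.15 (scipy 1.17.1, pandas 2.3.3, numpy 2.4.6) and were tested on simulated data.

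The members and the 29 gene lists were chosen with earlier results of these data known. Named were Myog and Myh3, all members of 3 regulator lists, in each other list the 6 largest differences, the gene nearest the median and those past 2-fold against it, and the 25 largest increases and decreases with at least 500 bases of exon and 60 reads. Alternatives were other filters, cutoffs, pseudocounts and scalings. Promoters were read from the NCBIM37 genome. Some genes and a promoter selected by these rules are not reported here.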

Additional observations from a re-analysis of the deposited data

Results flagged for a closer look

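Of the 11591 transcripts, 5 with at least 500 bases of exon and 60 reads in each pair had a first-day log2 ratio past 2-fold in opposite directions in siCtrl and siKlf5. The differences were not tested, since each siRNA and day has 1 library. Tagln, an actin-binding protein of smooth muscle, went from 79.2 to 28.2 FPKM in siCtrl (-1.49, interval -2.69 to -0.45) and from 53.1 to 148 in siKlf5 (1.48, 0.77 to 2.23). Its span overlaps that of Pcsk7. Traf1, an adaptor of tumour necrosis factor receptors, went from 13.0 to 31.0 in siCtrl (1.25, 0.01 to 2.58) and from 15.2 to 1.95 in siKlf5 (-2.91, -8.40 to -0.17). The intervals of these genes lay on opposite sides of 0. Timm8b, a chaperone of mitochondrial import, had -1.0 (-2.18 to 0.04) in siCtrl and 1.21 (0.29 to 2.18) in siKlf5. Dhrs3, a retinaldehyde reductase, had -1.48 (-3.37 to 0.03) and 1.24 (-0.16 to 2.78). Taf7, a subunit of TFIID, had 1.08 (-0.38 to 2.65) and -1.32 (-3.67 to 0.50).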

How the results depend on the processing

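No replicate block was fitted, since each siRNA and day has 1 library, the labels carry no replicate numbers and the values come from no test. A fit over both siRNAs with siRNA as a block would take the knockdown pair as a repeat of the control pair and was not run. The counts of transcripts higher and lower (674 and 1025) moved with the limit on the mean, to 1343 and 1792 at a mean of 1, 323 and 515 at 50 and 2241 and 2819 with none, and with the cutoff, to 1344 and 2338 at 1.5-fold and 275 and 206 at 4-fold. The shares also past 2-fold in siKlf5 were 54.4% and 37.1% at a mean of 1, 82.7% and 45.4% at 50 and 38.6% and 30.3% with no limit. Over the alternatives, 189 of 203 values of the list medians stayed within an interval taken from the ranked ratios of the genes in each list. That interval does not come from reads and takes genes as independent. For the lists of other lineage markers it was the full range of their genes, so staying within it says little. With the median set to 0, mitosis moved to -1.31, glycolysis to 0.38, oxidative phosphorylation to 0.15, ribosomal proteins to 0.24 and adipocyte markers to -0.59. With equal upper quartiles, these were at -1.27, 0.41, 0.18, 0.28 and -0.56, HLH inhibitors at 0.26 and ribosome biogenesis at -0.62. With no limit, adipocyte markers were at -0.63 and neuron markers at 0.10. For the 262 named genes, 10 of 1048 values left their counting interval on reads, 19 crossed 2-fold, and no gene past 2-fold changed direction. Only pseudocounts and scalings were varied for single genes. These move a ratio too little to reverse one past 2-fold, so the unchanged direction was fixed in advance and says little. The last alternatives were chosen after seeing the data: 627 and 933 were past 2-fold with at least 200 bases of exon, and 500 and 760 without overlap with another listed gene. The low day 1 depth limits transcripts of few reads, and without replicates the spread between cultures is unknown.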

Other observations

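Most markers of other lineages lay below the limit on the mean. Of 7 adipocyte markers 3 were above the limit on the mean: Pparg was at 156 FPKM on day 0 and 62.9 on day 1 (log2 ratio -1.31, interval -2.01 to -0.66), Lpl at 125 and 76.3 and Cebpa at 16.6 and 10.7. Of 8 osteoblast and cartilage markers 2 were above it, Runx2 at 77.7 and 50.1 and Sox9 at 216 and 286. Of 8 neuron and glia markers 3 were, Tubb3 at 626 and 704, Stmn2 at 280 and 339 and Syn1 at 75 and 103, and the span of Syn1 overlaps Timp1. Of 10 blood and endothelium markers 2 were, the globin Hba-a1 at 77.1 and 198, whose reads are shared with Hba-a2, and Cd68 at 8.18 and 6.76 on 13 and 7 reads.

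Of 38 interferon and antigen presentation genes 19 were above the limit, beside 11591 of 24016 transcripts in all. Xaf1, an interferon-induced gene, went from 4.71 to 30.4 FPKM (2.67, 1.07 to 4.72). It was the 1 gene of the 19 (5.26%) past 2-fold, beside 14.7% of all transcripts past it in either direction. The class I molecules H2-K1 and H2-D1 and their chaperone Tapbp had ratios of 0.71, 0.51 and 0.88, and Ddx58 and Irf1 had 0.81 and 0.20.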
